A study of Canis lupus familiaris with 7 samples.

Results

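Lysosomes break down proteins, sugars and lipids that reach them by endocytosis or autophagy, and the cathepsins are their proteases. The left ventricle of the dog was read here for 10 genes: the aspartic protease CTSD, the papain-family cysteine proteases CTSB, CTSL, CTSS, CTSK, CTSH and CTSZ, the membrane glycoproteins LAMP1 and LAMP2, and progranulin (GRN). A cathepsin is made as an inactive precursor that is sorted to the lysosome and cleaved there at acidic pH, and the LAMP proteins line the inside of the lysosomal membrane. Inherited loss of LAMP2 causes Danon disease, in which vacuoles fill heart muscle. The members were chosen by symbol: every probe set (a group of probes read as 1 value) with 1 of these 10 names as its single gene symbol in the platform annotation. The rule found 9 of the 15115 genes so named, with 22 of the 42924 probe sets, and CTSL was found under no single symbol.

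Total RNA came from the left ventricle of male dogs, 3 control samples (numbered 1, 3 and 4) and 4 samples from dogs on a low-salt diet (numbered 1 to 4), on 1-colour Affymetrix canine arrays. The design text describes adult male mongrel dogs of 25 to 28 kg, 10 of them on a diet of 0.5% sodium chloride for 2 weeks. The sources used here give neither the control diet nor how the 10 dogs relate to the 4 low-salt arrays. The comparison asks which heart transcripts differ under low dietary salt. The labels do not say that each sample is a separate animal, so the errors measure the spread between these samples. In whole tissue, fewer cells of a type and less RNA per cell cannot be told apart.

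The values below are log2(intensity + 16), quantile normalized, and a difference is low salt minus control on that scale with its SE from a limma fit over all tested probe sets. The 10 genes were selected on a family name with the low-salt minus control differences of these arrays in view, so those differences are given as a description without a test. Arrays carry no read depth, and their number limits the precision. A level is specific to its probe set and is not compared between genes.

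Median array signal was lower in low salt on average with overlap, and the GAPDH ratios did not overlap. Every array had been scaled to a trimmed mean of about 150. Median deposited intensity was 39.6, 31.5 and 51.3 in controls 1, 3 and 4 and 21.8, 21.6, 44.2 and 19.3 in low-salt 1 to 4. Low-salt 1, 2 and 4 lay below every control, and low-salt 3 was second to control 4. The means were 40.8 in controls and 26.7 in low salt (two-sided exact permutation test, p = 0.171). Control 4 and low-salt 3 had the highest correlation of either with any other array (r = 0.947 over the tested probe sets, which are not independent). The GAPDH 3' to 5' signal ratio, a measure of RNA integrity, averaged 2.58 ± 0.18 over the 3 controls and 2.27 ± 0.17 (SD) over the 4 low-salt arrays, with no shared range. A two-sided exact permutation test gave p = 0.0571, the lowest value possible with 35 splits. A second GAPDH ratio was 29.3 ± 10.0 over controls (22.7 to 40.9) and 17.7 ± 3.46 (SD) over low salt (14.5 to 22.6), again with no shared range and the same p in that exact test. The 3' to 5' ratios of both actin probe set pairs overlapped (exact permutation p = 0.400 and 0.457). The part of RNA integrity in the differences below was not tested. All 16 measured cardiomyocyte markers of 18 listed were above the signal filter. Their signal, summed on the linear scale after quantile normalization, was 128794 to 134788 in controls and 129203 to 135922 in low salt. Quantile normalization makes the brightest values of all arrays alike, so these sums cannot show whether cardiomyocyte content was equal. As deposited, the marker MYL2 read 20574, 18563 and 10864 in controls and 14796, 15868, 10021 and 13178 in low salt.

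By their brightest probe sets, cathepsin S and cathepsin D stood higher in every low-salt array than in any control. CTSS, which trims the invariant chain in antigen-presenting cells, read 9.39, 9.80 and 9.40 in controls 1, 3 and 4 and 10.30, 10.34, 10.41 and 10.08 in low-salt 1 to 4 (probe set Cfa.1661.1.S1_at). The 4 low-salt values lie close together and the groups do not overlap. The difference was 0.75 ± 0.18 (SE), or 1.68-fold. The other CTSS probe set (CfaAffx.18761.1.S1_s_at) differed by 0.58 ± 0.30, with 7.43, 7.44 and 6.39 in controls and 7.63, 7.84, 7.42 and 7.80 in low salt. Here control 4 was the lowest array and low-salt 3 lay below controls 1 and 3, and without control 4 the difference was 0.23.

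CTSD, the main aspartic protease of the lysosome, read 9.02, 9.13 and 8.67 in controls and 9.38, 9.70, 9.23 and 9.72 in low salt (Cfa.17547.1.S1_at). Low-salt 3 was the lowest of its group and control 4 the lowest of all, and the groups do not overlap. The difference was 0.56 ± 0.21 (SE), or 1.48-fold. The other CTSD probe set (CfaAffx.15770.1.S1_s_at) was below the signal filter, with a median deposited intensity of 15.0 in controls and 8.68 in low salt. It differed by 0.07 ± 0.39 (SE).

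**Figure D1:**
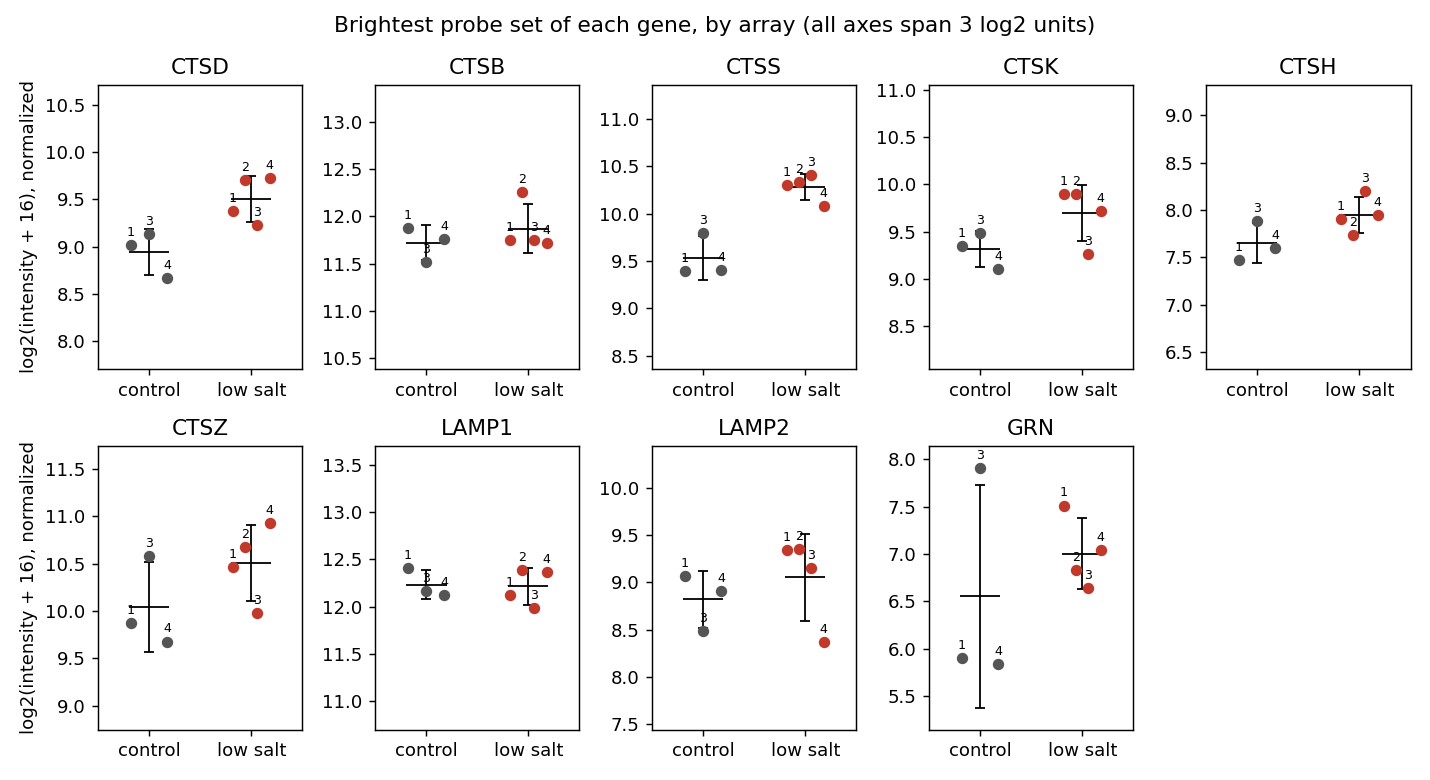
Normalized log2(intensity + 16) of the brightest probe set of each of the 9 genes, 1 point per array with its sample number, 3 controls in grey and 4 low-salt samples in red, and mean ± SD as bars. CTSD and CTSS separate without overlap, the LAMP1 groups overlap, and GRN control 3 lies far above controls 1 and 4.

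The collagen-degrading cathepsin K (CTSK) and cathepsin Z (CTSZ), a carboxypeptidase, stood higher in low salt on average with overlap. CTSK read 9.35, 9.48 and 9.10 in controls and 9.90, 9.89, 9.27 and 9.71 in low salt (Cfa.588.1.S1_at). Low-salt 1, 2 and 4 lay above all controls and low-salt 3 lay below 2 of them. The difference was 0.38 ± 0.20 (SE), and 0.48 ± 0.31 in the other CTSK probe set (CfaAffx.18787.1.S1_at), where it was 0.13 without control 4. In the gene table of assembly UU_Cfam_GSD_1.0, used for names and gene order only, 0 protein-coding genes lie between CTSS and CTSK.

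CTSZ read 9.87, 10.58 and 9.68 in controls and 10.46, 10.68, 9.98 and 10.92 in low salt (Cfa.12490.1.A1_at). Control 3 sat among the low-salt values and low-salt 3 near the other controls. The difference was 0.47 ± 0.25 (SE). Its dimmer probe set (CfaAffx.18934.1.S1_at) ordered the arrays in a like way, with 5.24, 6.35 and 4.64 in controls and 6.46, 6.85, 5.35 and 7.12 in low salt. That probe set differed by 1.03 ± 0.47 (SE), or 2.05-fold, from a median deposited intensity of 27.2 in controls. Without control 4 the CTSZ differences were 0.29 and 0.65, and without control 3 they were 0.74 and 1.51.

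Cathepsin B and cathepsin H had the smallest differences of the cathepsins by their brightest probe sets. CTSB, a broadly expressed cysteine protease, read 11.88, 11.52 and 11.76 in controls and 11.75, 12.25, 11.75 and 11.71 in low salt (Cfa.4159.1.A1_at). Low-salt 2 stood above all others and the rest of its group lay within the control range. The difference was 0.15 ± 0.15 (SE), and 0.02 without low-salt 2. The other CTSB probe set (Cfa.21450.1.S1_s_at) differed by 0.27 ± 0.32. CTSH, an aminopeptidase, read 7.47, 7.88 and 7.60 in controls and 7.91, 7.73, 8.20 and 7.94 in low salt (Cfa.2521.1.S1_at). Control 3 lay within the low-salt values. The difference was 0.30 ± 0.24 (SE), and that of the other CTSH probe set (CfaAffx.21741.1.S1_s_at) was 0.10 ± 0.34.

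LAMP2 differed by probe set. The probe set Cfa.10080.1.A1_at read 6.97, 7.38 and 6.94 in controls and 8.20, 8.39, 7.89 and 8.39 in low salt, so the lowest low-salt array exceeded the highest control. Its difference of 1.12 ± 0.25 (SE), or 2.17-fold, was the largest of the 22, and it ran from 1.04 without control 4 to 1.26 without control 3. The brightest LAMP2 probe set (CfaAffx.28310.1.S1_at) read 9.07, 8.49 and 8.91 in controls and 9.34, 9.35, 9.15 and 8.37 in low salt. Low-salt 4 was the lowest array there, and the other 3 low-salt arrays lay above all controls. The difference was 0.23 ± 0.26 (SE), and it ran from 0.06 without control 3 to 0.46 without low-salt 4. The remaining LAMP2 probe sets differed by 0.65 ± 0.33 (CfaAffx.28308.1.S1_s_at) and 0.34 ± 0.33 (CfaAffx.28306.1.S1_at), with overlap. LAMP2 is known to be spliced into isoforms that differ at the membrane end of the protein. The sources used here do not say which isoform a probe set reads.

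LAMP1, the other abundant lysosomal membrane glycoprotein, also split by probe set. The brightest one (Cfa.2449.1.A1_at) read 12.40, 12.16 and 12.12 in controls and 12.12, 12.39, 11.99 and 12.37 in low salt. The low-salt values run from just below the lowest control to just below the highest, and the difference was -0.01 ± 0.13 (SE). The dimmer one (CfaAffx.10473.1.S1_s_at) read 6.07, 6.25 and 5.75 in controls and 6.66, 7.25, 6.56 and 6.90 in low salt, without overlap. Its difference was 0.82 ± 0.29 (SE), or 1.76-fold, from a median deposited intensity of 60.8 in controls.

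GRN encodes a secreted glycoprotein that is delivered to lysosomes and cut there into granulins. Its brightest probe set (Cfa.7541.1.A1_at) read 5.90, 7.91 and 5.84 in controls and 7.51, 6.83, 6.64 and 7.04 in low salt. Control 3 was the highest of all arrays while controls 1 and 4 were the lowest. The difference was 0.45 ± 0.45 (SE), with 1.13 without control 3 and 0.10 without control 4. The second GRN probe set (CfaAffx.21858.1.S1_s_at) went the other way, by -0.25 ± 0.33 (SE). The 2 further ones (CfaAffx.21855.1.S1_s_at and Cfa.21563.1.S1_s_at) were below the signal filter and differed by 0.30 ± 0.24 and 0.11 ± 0.17.

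**Figure D2:**
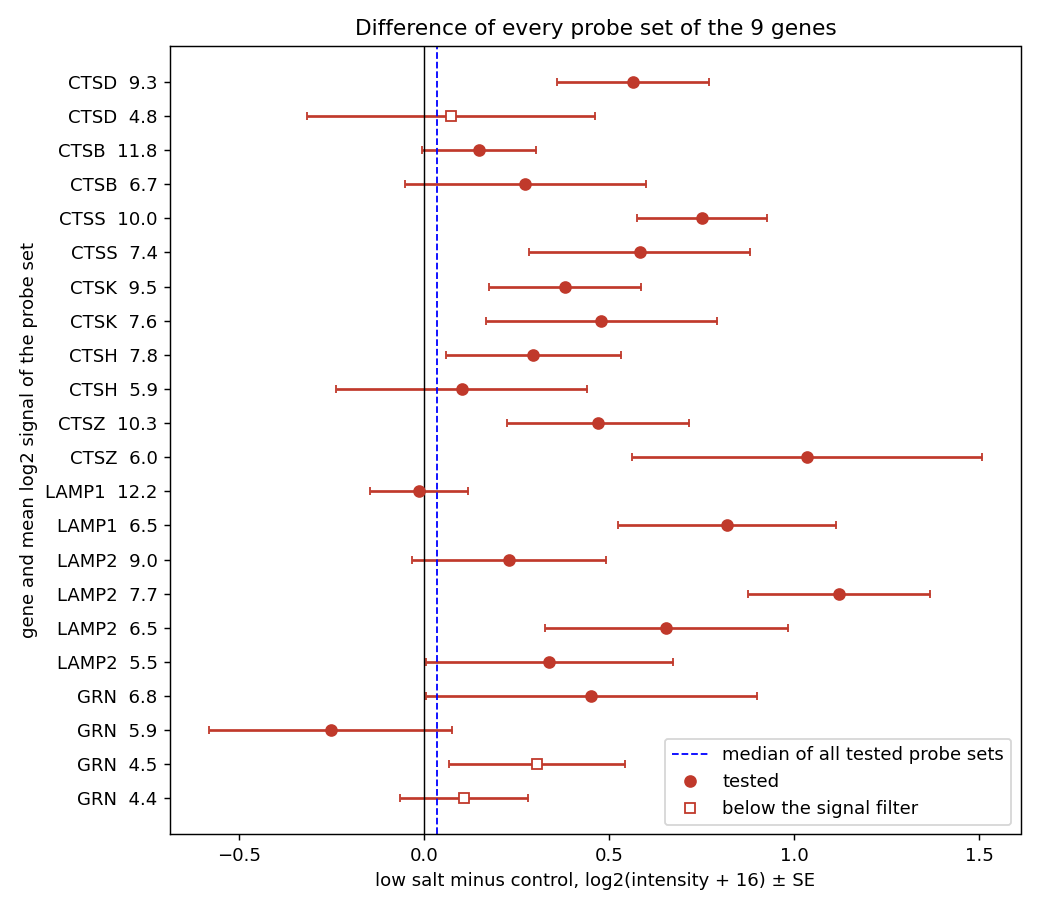
Difference between low salt and control (x axis, log2 scale, bars ± SE) of all 22 probe sets of the 9 genes, named with their mean log2 signal, filled where tested and open where below the signal filter. The LAMP2 probe set of mean 7.7 lies farthest right at 1.12, and 1 LAMP1 and 1 GRN probe set lie below 0.

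Of the 22 probe sets 20 had a difference above 0, and 19 passed the signal filter and entered the fit. Of these 19, 17 were above 0, beside 53.8% of all tested probe sets. Of these 19, 5 were higher (CTSS, CTSD, the dimmer CTSZ and LAMP1 probe sets and LAMP2 Cfa.10080.1.A1_at) and 0 lower at an unadjusted p under 0.05 in limma. Over all 28616 tested probe sets 5.27% were higher and 5.78% lower by that rule. In 4 of the 19 all low-salt arrays lay above all controls and in 0 below, against 5.13% and 5.68% of all tested probe sets. By limma 0 of the 19 passed a Benjamini-Hochberg adjusted p of 0.05, as 0.346% of all tested probe sets did, and the methods' t-test put 4 higher at that unadjusted level and 0 past the adjusted one. With the values as deposited 1 of the 19 passed the adjusted p by limma (CTSS Cfa.1661.1.S1_at), beside 0.577% of all tested probe sets. No member passed it in any other setting. At the threshold of the design text, an unadjusted p of 0.05 with a 2-fold change, 2 of the 19 were higher (LAMP2 and the dimmer CTSZ) and 0 lower by limma, against 1.67% and 2.73% of all. Nothing is read from these counts, because the genes were proposed with this contrast known. Without control 3 the count of 5 became 9, without low-salt 3 it was 8, and without control 4 or low-salt 2 it was 3. The count of 2 was 5 with array medians set equal, 3 with an offset of 1 or without control 3, and 0 with an offset of 64 or the values as deposited. It was 1 with any other single array left out except low-salt 3, and with no filter, the stricter filter, the methods' t-test, array weights or the replicate block.

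The brightest probe sets of the 9 genes had a median difference of 0.38, beside 0.05 over the brightest probe sets of all 11381 genes tested and 0.04 over all tested probe sets. All 9 were above 0 except LAMP1, beside 56% of all genes. The scaling of the arrays moved this level: with the values as deposited all 9 were above 0 with a median of 0.30, where all tested probe sets had a median of -0.18. With array medians set equal all 9 were above 0 again with a median of 0.73, where all tested probe sets had a median of 0.26. Relative to those shifts the median of the 9 was 0.35 as reported and 0.48 with the values as deposited. Setting array medians equal moves every difference by the same amount, so the 0.48 is the same there by construction. Without both control 4 and low-salt 3, chosen after seeing the data, the median of the 9 was 0.24, and with an offset of 64 it was 0.25. Nothing is read from the height of this median either, because the genes were proposed with this contrast known.

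**Figure D3:**
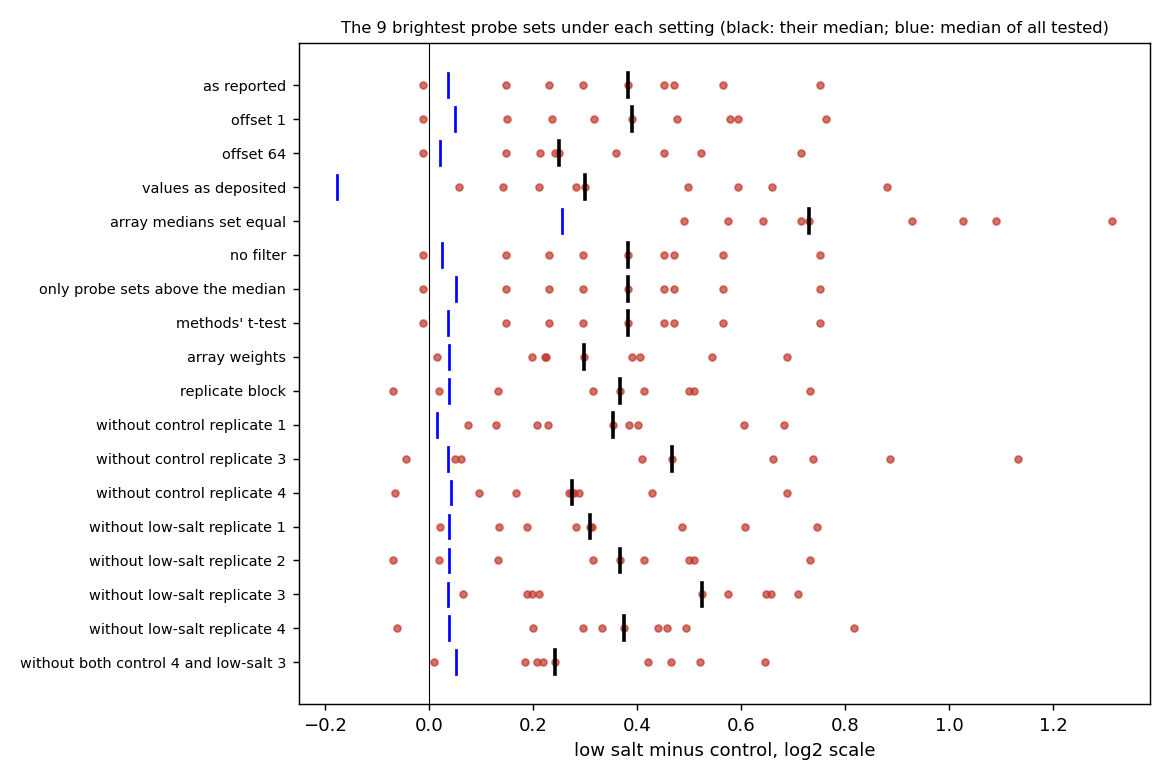
Differences of the brightest probe sets of the 9 genes (red points, log2 scale) under each processing setting, with their median (black) and the median of all tested probe sets (blue). The median of the 9 lies between 0.24 and 0.73 and above the blue mark in all 18 rows. The 9 genes were proposed with this contrast known.

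Within the groups the 9 brightest probe sets did not vary as 1 set. The deviations of each array from its group mean, over 7 arrays that share their scaling, gave r = 0.88 between CTSD and CTSZ, 0.79 between CTSD and LAMP1 and 0.72 between CTSD and CTSK. CTSS had r = 0.03 with CTSD and 0.68 with GRN, and CTSB had r = -0.80 with CTSH. These are descriptions over 7 points. By the same measure the genes most like CTSS were ANKH, LOC490791 and MKNK2 (r of 0.988, 0.987 and 0.982), and those most like CTSD were PSMD13, EBAG9 and ANKRA2 (0.994, 0.992 and 0.992). For LAMP2 they were MTA2, WASHC4 and ARHGAP5 (0.998, 0.989 and 0.988). The first gene was TMEM88 for CTSZ (0.997), TARS1 for CTSK (0.996), PSMF1 for LAMP1 (0.996), PCYT1A for GRN (0.996), GBP6 for CTSH (0.988) and TRAF3IP2 for CTSB (0.985). With so few arrays, between 69 (CTSB) and 461 (CTSK) probe sets of other genes exceeded r = 0.9 with a given member.

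The other genes, called lysosomal here, were listed by function. The lists also hold protease inhibitors, sorting adaptors and regulators, which need not reside in the lysosome. Of 156 genes in 8 lists 137 were on the array and 120 were tested, by the brightest probe set. At an unadjusted p under 0.05 in limma 8 of the 120 were higher and 1 lower, beside 5.57% and 4.89% of all genes tested, and 0 passed the adjusted p of 0.05 by limma or the methods' t-test. Their median difference was 0.10, beside 0.05 for all genes. It was 0.02 beside -0.14 with the values as deposited and 0.45 beside 0.30 with array medians set equal. The count of 8 became 4 without control 1, 3 without low-salt 1 and 5 without low-salt 4, and 17 with array medians set equal.

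Among the other lysosomal proteases 11 genes were tested, with 1 higher and 0 lower at an unadjusted p under 0.05 and a median of 0.08. Cathepsin C (CTSC), which activates serine proteases of leukocytes, read 7.11, 6.80 and 6.28 in controls and 7.47, 7.65, 7.25 and 7.18 in low salt, without overlap. It differed by 0.66 ± 0.28 (SE, limma adjusted p = 0.413), with 0.43 without control 4. As deposited the CTSC groups overlapped, with 114 in low-salt 4 and 137 in control 1. The tripeptidyl peptidase TPP1 differed by 0.73 ± 0.37 (limma adjusted p = 0.500), with 0.45 without control 1. Of 5 protease inhibitors 1 was higher, and the median was -0.04. This was cystatin CST6, which inhibits legumain and cysteine cathepsins, at 1.04 ± 0.34 (SE, limma adjusted p = 0.294), without overlap. As deposited the CST6 groups overlapped, with 34.8 in low-salt 2 and 38.9 in control 3. SERPINA1, the inhibitor of neutrophil elastase, differed by -0.43 ± 0.39, and its other probe set by 0.49. The first value ran from -0.78 without low-salt 3 to -0.12 without control 4.

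The enzymes that cut sugars, glycosaminoglycans and lipids went both ways. Of 19 glycosidase and glycosaminoglycan genes 2 were higher and 1 lower at an unadjusted p under 0.05, with a median of 0.14. The lower one was α-galactosidase A (GLA), the enzyme lacking in Fabry disease, with 8.62, 7.45 and 7.34 in controls and 6.84, 6.46, 6.55 and 6.56 in low salt. It differed by -1.20 ± 0.32 (SE, limma adjusted p = 0.184), and its second probe set by -0.04. Without control 1, the highest array, GLA differed by -0.79. The α-mannosidase MAN2B1 differed by 1.09 ± 0.42 (limma adjusted p = 0.372), with 0.59 without control 3, and its other probe set by 0.25. In the list of lipid and phosphate hydrolases and activators 2 of 14 genes were higher and 0 lower, with a median of 0.05. These were PLD3, an exonuclease of the lysosome, at 1.06 ± 0.37 and the ganglioside activator GM2A at 0.89 ± 0.34 (SE, limma adjusted p = 0.327 and 0.363), while their other probe sets differed by -0.15, -0.22 and -0.34. PLD3 differed by 0.69 without control 1 and GM2A by 0.53 without control 3.

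Of 25 further lysosomal membrane proteins and transporters 1 was higher and 0 lower at an unadjusted p under 0.05, with a median of 0.11. CLN3, mutated in juvenile Batten disease, differed by 0.69 ± 0.29 (SE, limma adjusted p = 0.404) without overlap, and its other tested probe set by 1.46 ± 0.33, also without overlap. That other one was dim, with a median deposited intensity of 31.2 beside the offset of 16. As deposited the brightest CLN3 probe set overlapped, with 77.1 in low-salt 4 and 106 in control 4. A further CLN3 probe set, below the signal filter, differed by 0.26 ± 0.45 with overlap. The cation channel TPCN2 differed by -0.66 ± 0.33 (adjusted p = 0.503). None of the 16 subunits of the proton pump that acidifies the lysosome passed an unadjusted p of 0.05 (median 0.08), with ATP6V1D at 0.38 ± 0.21 and TCIRG1 at 0.63 ± 0.36. Their other probe sets differed by 0.19 and 0.14, and the first values were 0.20 without control 4 for ATP6V1D and 0.19 without control 1 for TCIRG1. Of 16 sorting receptors and adaptors 1 was higher, the sorting receptor SORL1 at 0.74 ± 0.34 (SE, limma adjusted p = 0.441). Its 2 other probe sets, 1 of them below the signal filter, differed by 0.84 each, and in all 3 the low-salt arrays lay above all controls. All 3 were dim, with median deposited intensities of 24.2, 18.8 and 8.38 beside the offset of 16. As deposited the brightest SORL1 probe set overlapped, with 19.5 in low-salt 4 and 39.2 in control 4. The adaptor GGA3 differed by 0.72 ± 0.34 and its 3 others by -0.11, -0.03 and -0.60. Among 14 regulators 0 passed an unadjusted p of 0.05 (median 0.20). TFEB, the transcription factor that drives lysosomal genes, differed by 0.69 ± 0.42 (limma adjusted p = 0.578) from a dim level, with 0.35 without control 1 and 1.09 without control 3. LAMTOR2, part of the scaffold for the MTOR kinase on the lysosome, differed by 0.30 ± 0.17.

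**Figure D4:**
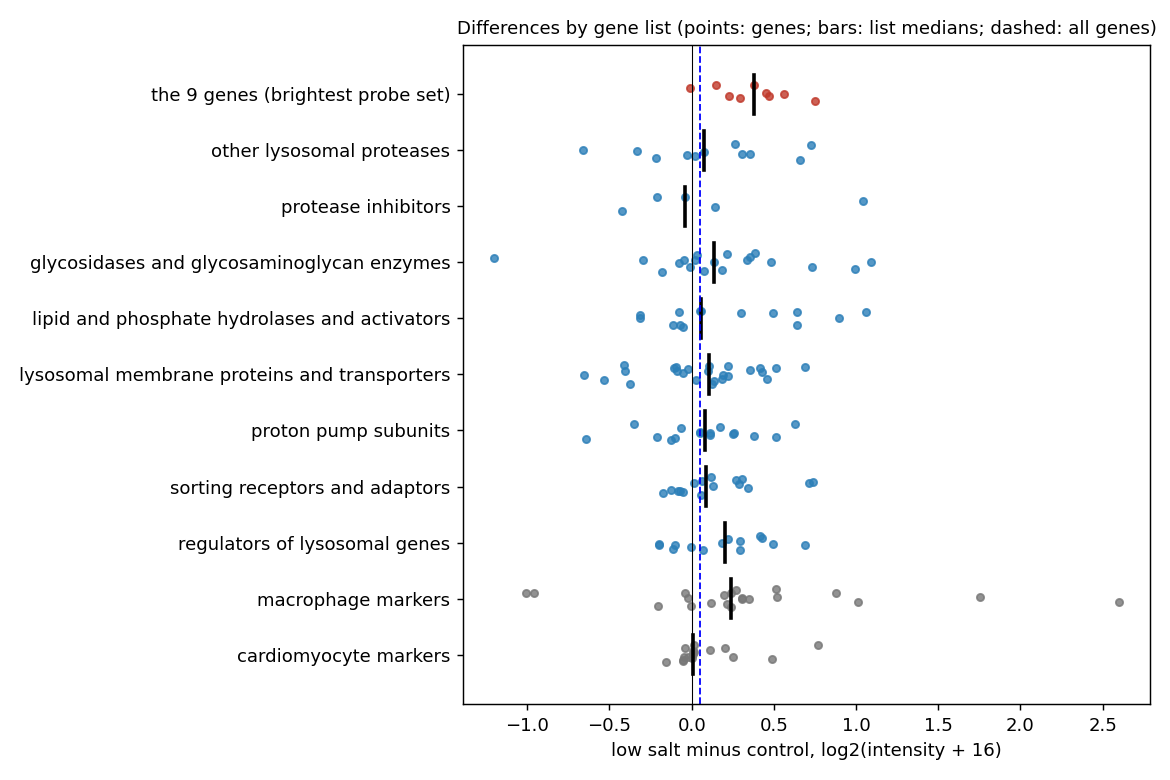
Difference between low salt and control (x axis, log2 scale) of each gene by its brightest probe set, in the 9 genes, the 8 lysosomal lists, and macrophage and cardiomyocyte markers, with list medians as black bars and the median of all genes dashed. The medians of the 8 lysosomal lists lie between -0.04 and 0.20, and that of the 9 genes at 0.38. The 9 genes were proposed with this contrast known, so nothing is read from their higher median.

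Macrophages hold many lysosomes and cathepsin S, and the summed signal of their markers overlapped between the groups while 3 single markers did not. Of 21 tested macrophage markers 15 were above 0, beside 56% of all genes tested, with a median of 0.24 beside 0.05. At an unadjusted p under 0.05 in limma 5 were higher and 1 lower, beside 5.57% and 4.89% of all genes tested. In 3 of the 21, the lysozyme gene LYZF2, the complement gene C1QB (1.01 ± 0.26, SE) and the transglutaminase gene F13A1 (0.52 ± 0.20), all low-salt arrays lay above all controls. In 0 of the 21 they lay below all controls. Over all tested probe sets these shares were 5.13% and 5.68%. The other 2 of the 5 higher ones were MARCO (1.75 ± 0.62) and C1QC (0.88 ± 0.36), and the lower one was FCER1G (-1.01 ± 0.44). MARCO had deposited intensities of 22.4, 1.45 and 4.69 in controls and 113, 125, 84.9 and 0.933 in low salt. FCER1G had 84.1, 33.4 and 64.9 in controls and 4.23, 4.17, 69.6 and 6.04 in low salt. Many of these lie under the offset of 16, near the floor. These markers were named after their values were seen. LYZF2 was the 1 that passed the adjusted p (2.60 ± 0.37, SE, limma adjusted p = 0.0106). It did not pass by the methods' t-test (adjusted p = 0.349) or without control 1 (limma adjusted p = 0.0713). Over the other settings its limma adjusted p was 0.00058 to 0.0396. The signal summed over 22 markers, on the linear scale after quantile normalization, was 4250 to 6713 in controls and 5730 to 7402 in low salt. It was lowest in controls 4 and 1, which were also the lowest pair of arrays for the brightest CTSD, CTSS, CTSH, CTSZ and GRN probe sets and not for those of CTSB, CTSK, LAMP1 and LAMP2. Bright markers weigh most in such a sum, so it is no measure of macrophage content. The brightest, LYZ, averaged 11.01 in controls and 11.21 in low salt (difference 0.20 ± 0.21, SE). ITGAM and LYVE1 were at or near the floor of the array, with a median deposited intensity under 16. CD68, a lysosomal glycoprotein of macrophages, differed by 0.42 ± 0.35 (SE) and its other probe set, below the signal filter, by -0.61. Neutrophil markers (7 tested) had a median of 0.07 and 0 past an unadjusted p of 0.05. Lymphocyte (6), endothelial (8) and fibroblast (7) markers had medians of -0.13, -0.03 and -0.10, also with 0 past it. Of 16 cardiomyocyte markers 2 were higher (median 0.01), of 6 mast cell markers 2 were lower (median -0.25) and of 5 smooth muscle markers 1 was higher (median 0.38) at that level. Adipocyte and red cell markers, 2 tested each, had 0 past it and medians of -0.01 and -0.14. The part of any cell type in the differences of the cathepsins was not tested.

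Cathepsin L itself was not measured under its own symbol. The gene table lists CTSL among the synonyms of LOC403708, which it marks as a pseudogene, and 2 probe sets carry that symbol alone. They differed by 0.24 ± 0.25 and 0.21 ± 0.26 (SE), with overlap, and are not counted above.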

How the data were processed

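The authors deposited 1 linear intensity per probe set and array, made with GCOS per the submitters' processing notes; the sources used here give no version or summary method. Every array had a 2% trimmed mean of about 150, so the authors' values were already scaled. From them log2(intensity + 16) was computed and quantile normalized. The 111 control probe sets and the third of the rest with the lowest mean over all 7 arrays were left out, and 28616 were tested with limma 3.58.1 (lmFit, eBayes with trend; R 4.3.3) for low salt against control, with Benjamini-Hochberg adjustment and no covariates. The code was tested on simulated data. All 22 member probe sets matched the gene table by gene number.

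The members and lists were chosen with earlier results of these data known. Named are all members, the 2 genes of smallest p in each lysosomal list, and for each of 9 members the 3 genes of highest within-group correlation, of which part are printed. Samples were grouped by title. Replicate numbers 1, 3 and 4 occur in both groups, and the labels do not say that they mark pairs. Deviations of same-numbered arrays correlated at 0.07, -0.26 and -0.18, and they were not taken as pairs. With so few shared numbers these correlations cannot exclude pairs. The alternatives were other offsets, scalings, filters, array weights, the methods' t-test, a replicate block, gene means and arrays left out.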

Additional observations from a re-analysis of the deposited data

Results flagged for a closer look

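In 3 of 38 probe sets checked, 1 of the 4 low-salt arrays stood far from the other 3; chance gives about 1 in 20. CTSB (Cfa.4159.1.A1_at) read 12.25 in low-salt 2 and 11.71 to 11.75 in the others. SERPINA1 read 7.81 in low-salt 3 and 6.30 to 6.47 in the others. TFEB read 4.91 in low-salt 1 and 5.66 to 5.80 in the others.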

How the results depend on the processing

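Over the 17 alternatives, 16 of the 22 member probe sets kept the sign of their difference, and CTSB Cfa.21450.1.S1_s_at, CTSH CfaAffx.21741.1.S1_s_at, the brightest LAMP1, LAMP2 CfaAffx.28306.1.S1_at, the dim CTSD and GRN Cfa.21563.1.S1_s_at did not in at least 1. The genes named from the other lysosomal lists kept theirs wherever they were tested. The count of 5 higher member probe sets became 9 with array medians set equal and 3 to 9 with 1 array left out, and the median of the 9 genes ran from 0.27 to 0.52 with 1 array left out and was 0.73 with equal medians. The 8 higher other lysosomal genes became 4 with the values as deposited, 17 with equal medians and 3 to 10 with 1 array left out. The 1 lower one became 5 as deposited, 3 with no filter or with gene means, and 2 with offset 64, equal medians, the methods' t-test, array weights or without both control 4 and low-salt 3, and was 1 to 4 with 1 array left out. The 99 probe sets past the adjusted p over the whole array became 39 with offset 1, 165 as deposited, 27 with no filter, 4 by the methods' t-test, 177 with array weights, 297 without both control 4 and low-salt 3 and 21 to 261 with 1 array left out. With the replicate block the counts were 2 member probe sets higher, 5 other lysosomal genes higher and 27 over the array. The labels do not say that the numbers pair the samples. Of probe sets at an unadjusted p under 0.05, 47.7% were higher as reported, 19.8% as deposited and 72.3% with equal medians. The causes were not tested. Signal limits the dim CTSD and GRN probe sets, which lay near the floor.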
